A study of Homo sapiens with 4 samples.

Results

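The lysosomal genes described here are 48 listed genes, matched by Ensembl identifier to symbol in count tables of 78686 features. They comprise 26 soluble hydrolases, 3 soluble non-enzyme proteins of the lumen (GM2A, NPC2 and PSAP), 7 membrane proteins, 9 subunits or accessory subunits of the proton pump, the sorting receptor SORT1, the transcription factor TFEB and the pseudogene GUSBP1. All 48 matched, GUSBP1 to 2 identifiers. Polyadenylated RNA was sequenced from HEK293, a human embryonic kidney cell line, in 2 libraries of unedited (WT) cells and 2 of cells knocked out for HEMK1 (KO). HEMK1 is a methyltransferase of mitochondrial release factors. The KO line is 1 clone, grown from a single sorted cell after transfection with pooled Cas9 plasmids that each carried another guide, so the edit and any other feature of the clone cannot be told apart. The labels do not say whether the WT cells were transfected, sorted or cloned, and they call the libraries of each group biological replicates without saying how the cultures were separated, so p-values measure only the spread between these libraries.

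Lysosomal hydrolases are made in the endoplasmic reticulum, receive mannose 6-phosphate on their N-glycans in the Golgi apparatus, and are carried to endosomes by the receptors IGF2R and M6PR. Lysosomal membrane proteins such as LAMP1 and LAMP2 travel by sorting motifs in their cytosolic tails and do not use that tag. The vacuolar proton pump acidifies the lumen in which the hydrolases work, and TFEB is known to activate many of these genes through a CACGTG-centred promoter element called CLEAR.

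Total gene counts lay between 2476471 and 3202039 per library. HEMK1 had 6 and 9 counts in WT and 1 and 7 counts in KO libraries, a ratio of 0.455 with a 95% exact counting interval of 0.167 to 1.14, so its mRNA does not check the labels at this depth. Of the HEK293 markers, KRT8, KRT18, VIM, NEFL, CDH2 and LIN28B passed the filter on low counts, NEFM had 5 to 13 counts per library, and PAX2 and INA were at or near 0. The list summed to 384 and 379 CPM (counts scaled to a million-count library, after TMM scaling) in WT and 304 and 289.6 CPM in KO libraries. KRT8, KRT18, VIM and CDH2 had both KO libraries below both WT libraries. NEFL and NEFM had both KO libraries above, and the groups of LIN28B overlapped. Of the 6 markers past the filter, 0 passed the edgeR test (smallest adjusted p = 0.332, for VIM). Summed over 12 markers of blood cells and macrophages, the level was 0 and 0.734 CPM in WT and 3.10 and 12.7 CPM in KO libraries. Haemoglobin genes gave all 9 counts of KO replicate 1 (HBA1 1, HBA2 4 and HBB 4). They also had counts in KO replicate 2 (HBA2 2 and HBB 11). LYZ and CD74 had 13 and 10 counts in KO replicate 2 and 0 in KO replicate 1, so their signal rests on 1 KO library. PTPRC, CD14, AIF1 and TYROBP had 1 count each in KO replicate 2 and 0 in KO replicate 1. CD74 and AIF1 also had 1 count each in WT replicate 2. The macrophage genes CD163, CSF1R and MARCO had 0 counts in all 4 libraries. The part of these marker differences in the lysosomal levels was not tested. In bulk RNA, fewer cells of a type and less RNA per cell cannot be told apart.

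Promoters of several members carry the CLEAR core in multiple copies. RefSeq promoter sequences of GRCh38.p14, running from 250 bases before to 50 after each annotated start, were at hand for 34 of the 48 genes. The 6-base core CACGTG, which reads the same on both strands, was present in 9 of these 34 (26.5%) against 10.9% of 15842 protein-coding genes. The 8-base form TCACGTGA, which contains that core, was present in 6 of 34, namely LAMP1, GAA, MCOLN1, CTSA, CLN3 and ATP6V0D1 (17.6% against 1.65%). The sequences of 5 of these genes are shown because they carry the element by which the lysosomal genes are known to be co-regulated. They are from the gene's strand, 5′ to 3′, with each CACGTG in capitals. LAMP1 is given for its whole upstream 250 bases (chr13:113296989-113297238, plus strand), with 5 copies, and the others as 44 bases around the element: GAA (chr17:80101486-80101529, plus strand), MCOLN1 (chr19:7522564-7522607, plus strand), CTSA (chr20:45891291-45891334, plus strand) and ATP6V0D1 (chr16:67481192-67481235, minus strand).
LAMP1: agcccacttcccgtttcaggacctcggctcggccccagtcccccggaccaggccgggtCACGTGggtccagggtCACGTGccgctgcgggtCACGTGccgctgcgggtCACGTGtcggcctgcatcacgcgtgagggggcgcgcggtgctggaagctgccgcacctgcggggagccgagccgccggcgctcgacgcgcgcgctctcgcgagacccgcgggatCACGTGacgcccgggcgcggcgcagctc
GAA: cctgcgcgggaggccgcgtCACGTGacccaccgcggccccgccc
MCOLN1: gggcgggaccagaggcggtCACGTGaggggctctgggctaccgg
CTSA: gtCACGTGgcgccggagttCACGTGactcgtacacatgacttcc
ATP6V0D1: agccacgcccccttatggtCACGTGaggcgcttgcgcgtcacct
A match to these letters is a description of the sequence and not a measured binding site.

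The members spanned levels from 0 to 453 CPM (ATP6V1A in KO replicate 1), a far wider range than the differences between genotypes. Together they took 0.271% and 0.257% of counts in WT and 0.275% and 0.279% in KO libraries. Levels are compared between genes as CPM per kilobase of a representative transcript, averaged over the 4 libraries. ATP6V1E1, a stalk subunit of the pump, was the highest at 214 CPM per kilobase, with 215 and 174 in WT and 233 and 233 in KO libraries. The tetraspanin CD63 followed at 161, with 168 and 165 in WT and 129.8 and 180.4 in KO libraries. These neighbours overlapped, since KO replicate 2 of CD63 lay above WT replicate 2 of ATP6V1E1. The pump subunit ATP6V1D (105), the cholesterol-binding NPC2 (97.2), the lipase LIPA (91.5) and the catalytic pump subunit ATP6V1A (89.4) came next, and their ranges over libraries overlapped. LIPA, which splits cholesteryl esters and triglycerides, was the highest hydrolase by this measure, followed by the alpha-galactosidase GLA at 71.4 CPM per kilobase. The order is not adjusted for the G and C content (GC) of the transcripts, with which the measured levels fell, as given below.

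**Figure D1:**
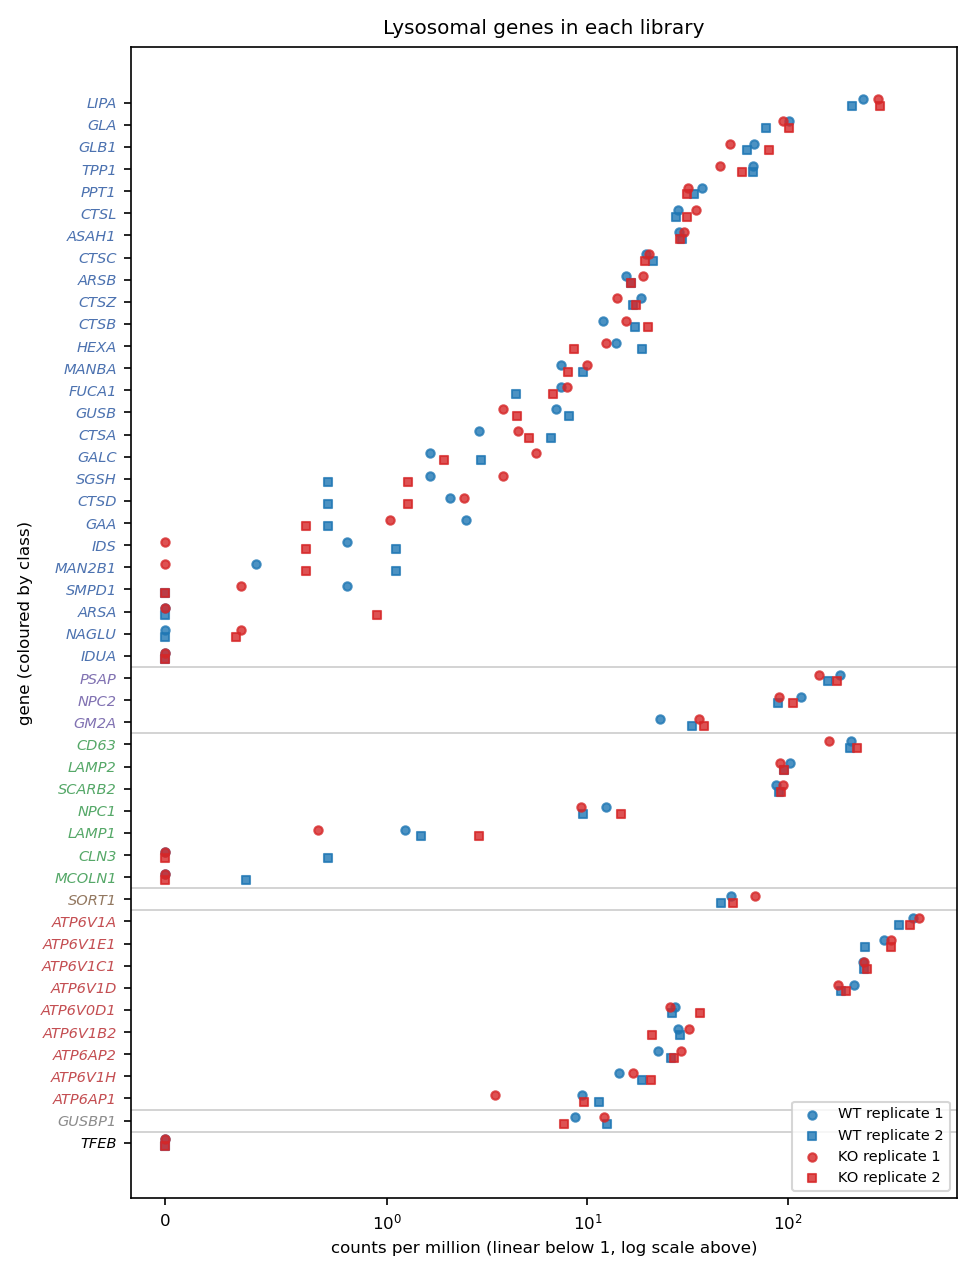
Level of each lysosomal gene in CPM, on an axis that is linear below 1 and logarithmic above, with 1 point per library (blue WT, red KO, circles replicate 1, squares replicate 2) and genes grouped and coloured by class. GUSBP1 is shown for its identifier with counts, and members range from 0 in all libraries (IDUA and TFEB) to 358 CPM and more in every library (ATP6V1A), with the 4 libraries of an abundant gene close together.

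Some of the best-known lysosomal genes were almost undetected. LAMP1, a standard marker of the lysosomal membrane, had 3 and 4 counts in WT and 2 and 9 counts in KO libraries. Its paralogue LAMP2 had 251 and 260 counts in WT and 265 and 301 in KO libraries. CTSD, the aspartic protease cathepsin D, had 5 and 2 counts in WT and 7 and 4 in KO libraries, whereas LIPA had 577 and 569 in WT and 823 and 909 in KO libraries. Per kilobase, LAMP2 stood at 23.9 CPM and LAMP1 at 0.579 CPM, and no library of LAMP1 came near any of LAMP2. TFEB had 0 counts in all 4 libraries, which allows a level of up to 1.23 and 1.1 CPM in the WT and 1.03 and 0.956 CPM in the KO libraries (3 counts per library, counting error only).

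The filter on low counts left 34 of the 48 members for testing. It kept genes with about 10 counts or more in at least 2 of the 4 libraries, of either genotype. The 14 members below it were the hydrolases CTSD, GAA, NAGLU, SGSH, IDS, IDUA, ARSA, GALC, MAN2B1 and SMPD1, the membrane proteins LAMP1, MCOLN1 and CLN3, and TFEB. Together these 14 had 27 counts in each WT library and 41 and 33 counts in the KO libraries. GAA, the acid alpha-glucosidase, had 6 and 2 counts in WT and 3 and 2 in KO libraries. GALC, which degrades galactosylceramide, had 4 and 8 in WT and 16 and 6 in KO libraries, the largest count of any of the 14. IDUA, an alpha-L-iduronidase that acts on heparan and dermatan sulphate, had 0 in every library. For CTSD the ratio of KO to WT counts had a 95% exact counting interval reaching up to 4.08, and the same bound held for LAMP1. Differences smaller than such bounds could not be seen in these 14 genes, and 0 of them were called in a fit without the filter.

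Most of the untested members, 10 of 14, shared a transcript of at least 60% GC. Of the 10 members with at least 60% GC in the representative transcript of GENCODE 29, 0 passed the filter, and the highest mean count among them was 5.25, for the sulphatase SGSH. Of the 30 members below 55% GC, 28 passed, the exceptions being GALC (41.7%) and IDS (43.5%). In between, 5 of 7 passed, with LAMP1 (55.2%) and CLN3 (57.8%) below the filter. Over the 47 members with a GC value, GC and mean CPM per kilobase correlated at a Pearson r of −0.621 (log2 of CPM per kilobase plus 0.1) and a Spearman rho of −0.577; these points share the same 4 libraries and are given as a description.

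The same held for all genes of these libraries. Of all protein-coding genes below 40% GC, 68.7% passed the filter. The share fell with each band of 5 percentage points to 62.4%, 52.7%, 41.2%, 25.6% and 8.94%, and to 2.30% from 65% upwards. The lysosomal list reaches into the bands with few passing genes, since the median GC was 48.4% for its 33 tested members with a GC value and 61.5% for its 14 untested ones. The part of GC in the levels of single genes was not tested.

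**Figure D2:**
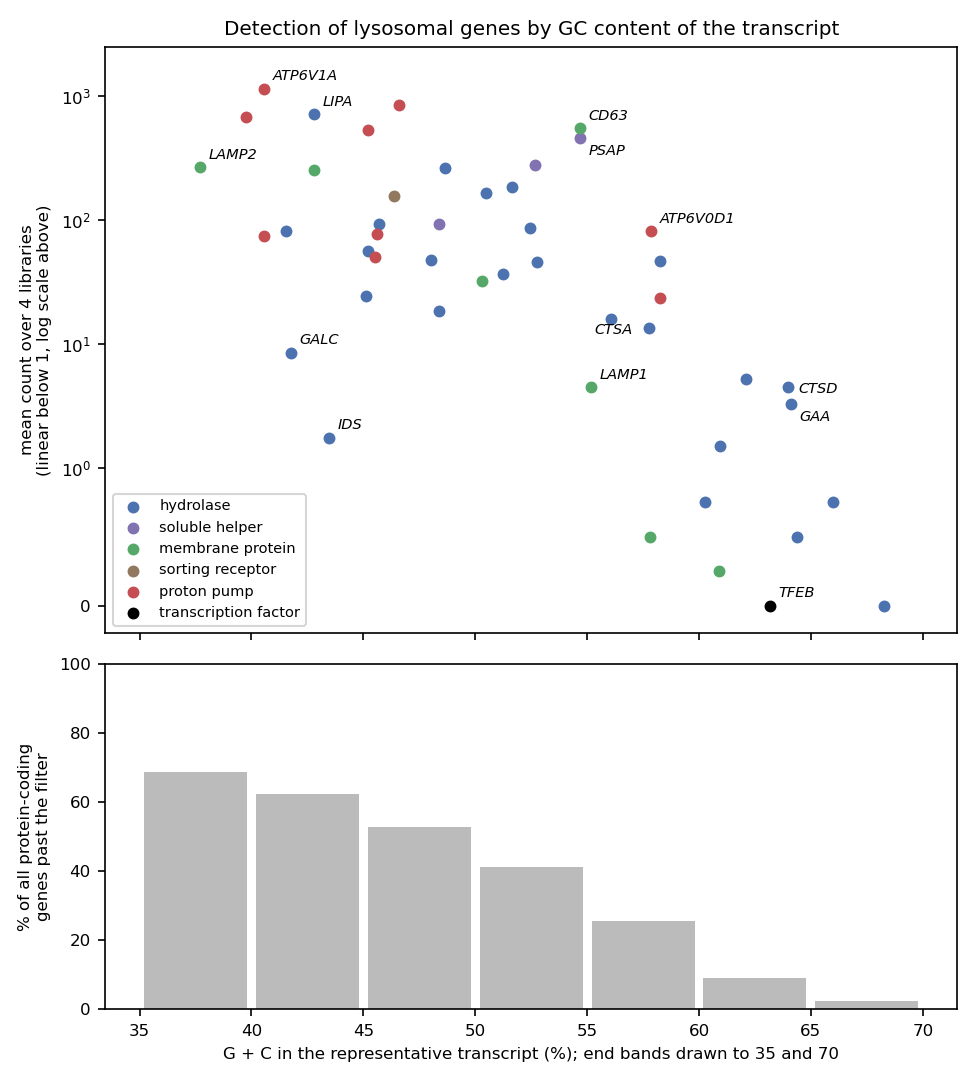
Upper panel, mean count over the 4 libraries (linear below 1, log scale above) against the GC percentage of the representative transcript for each of 47 lysosomal genes, coloured by class. Lower panel, percentage of all protein-coding genes that passed the low-count filter in each GC band; from 60% GC upwards no lysosomal gene exceeds a mean count of 5.25 and fewer than 10% of all coding genes passed.

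GC near that of LAMP1 was found in members of very different levels. CD63 (54.7%) had a mean of 556 counts and PSAP (54.7%) 461, both just below 55%. From 55% to 60% GC, where LAMP1 lies, the 7 members had a median mean count of 16 and a range of 0.5 to 82. ATP6V0D1 (57.9%) was the highest of these 7. To show what these percentages look like in sequence, LAMP1 is set beside its paralogue LAMP2 and CTSD beside LIPA, pairs chosen after their values were seen. For each, 120 bases from 1 coding exon are shown, each the stretch whose GC is nearest that of its whole transcript, with G and C in capitals. LAMP1 has 66 G or C among its 120 bases (chr13:113321561-113321680, plus strand) and LAMP2 has 45 (chrX:120448984-120449103, minus strand). CTSD has 77 (chr11:1761347-1761466, minus strand) and LIPA has 51 (chr10:89223692-89223811, minus strand), all in GRCh38 coordinates.
LAMP1: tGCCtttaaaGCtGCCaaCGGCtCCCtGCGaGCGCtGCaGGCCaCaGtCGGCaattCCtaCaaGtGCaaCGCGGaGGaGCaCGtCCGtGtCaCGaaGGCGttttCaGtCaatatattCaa
LAMP2: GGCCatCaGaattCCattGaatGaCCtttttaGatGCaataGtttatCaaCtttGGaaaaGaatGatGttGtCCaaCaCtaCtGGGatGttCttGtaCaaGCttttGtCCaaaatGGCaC
CTSD: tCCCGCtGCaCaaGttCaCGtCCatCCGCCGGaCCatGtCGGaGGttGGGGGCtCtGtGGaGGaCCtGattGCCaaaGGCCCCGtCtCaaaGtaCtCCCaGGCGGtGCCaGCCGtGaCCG
LIPA: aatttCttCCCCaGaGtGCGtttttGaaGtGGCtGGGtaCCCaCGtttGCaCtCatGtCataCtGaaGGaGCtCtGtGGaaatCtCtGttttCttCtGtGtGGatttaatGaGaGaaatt

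Overlapping genes may also add reads to a count or take reads from it, which was not tested. In GENCODE 29, exons of 23 of the 48 members overlap exons of another gene, 9 of the 14 untested and 14 of the tested ones, and the strand setting of the counting is not given in the sources used here. IDS, below the filter at 43.5% GC, overlaps a pair of genes on its own strand. LAMP1, GAA, ARSA, SMPD1 and TFEB have no such overlap and were also below the filter.

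No lysosomal gene was called between KO and WT libraries. Among the 34 tested members, 0 passed an adjusted p under 0.05 in the edgeR quasi-likelihood test, adjusted by Benjamini and Hochberg over 10670 genes, against 0.328% of all tested genes (0.0469% higher and 0.281% lower in KO). At an unadjusted p under 0.05 there was 1 (LIPA), against 8.43% of all tested genes. DESeq2 gave 0 members at either threshold, beside 44 of all genes called at the adjusted one. Its share over all genes at the unadjusted threshold was not computed. In log2 fold change 19 members lay above and 15 below 0, with a median of 0.02 against 0.00919 for all tested genes. The KO libraries lay wholly above the WT libraries for 8 members and wholly below for 4, and the groups overlapped for 22. Groups did not overlap in 39.2% of all tested genes, with KO above in 21.4% and below in 17.8%, so the members' 12 of 34 were near the background. Across the 34, the median absolute log2 difference was 0.146 between the genotype means. Between single libraries it was 0.201 for the WT replicates and 0.233 for the KO replicates. Means vary less than single libraries, so the first value is not on the same footing as the others. A difference between genotype means that was larger than both replicate differences was seen in 7 of 34. The share over all tested genes was not computed, so this count has no background to be read against. The authors' deposited table gives an adjusted p of a Wald test for 35 members, the smallest being 0.999988. Over all genes it gives 12392 adjusted p-values, of which 34 are under 0.05.

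**Figure D3:**
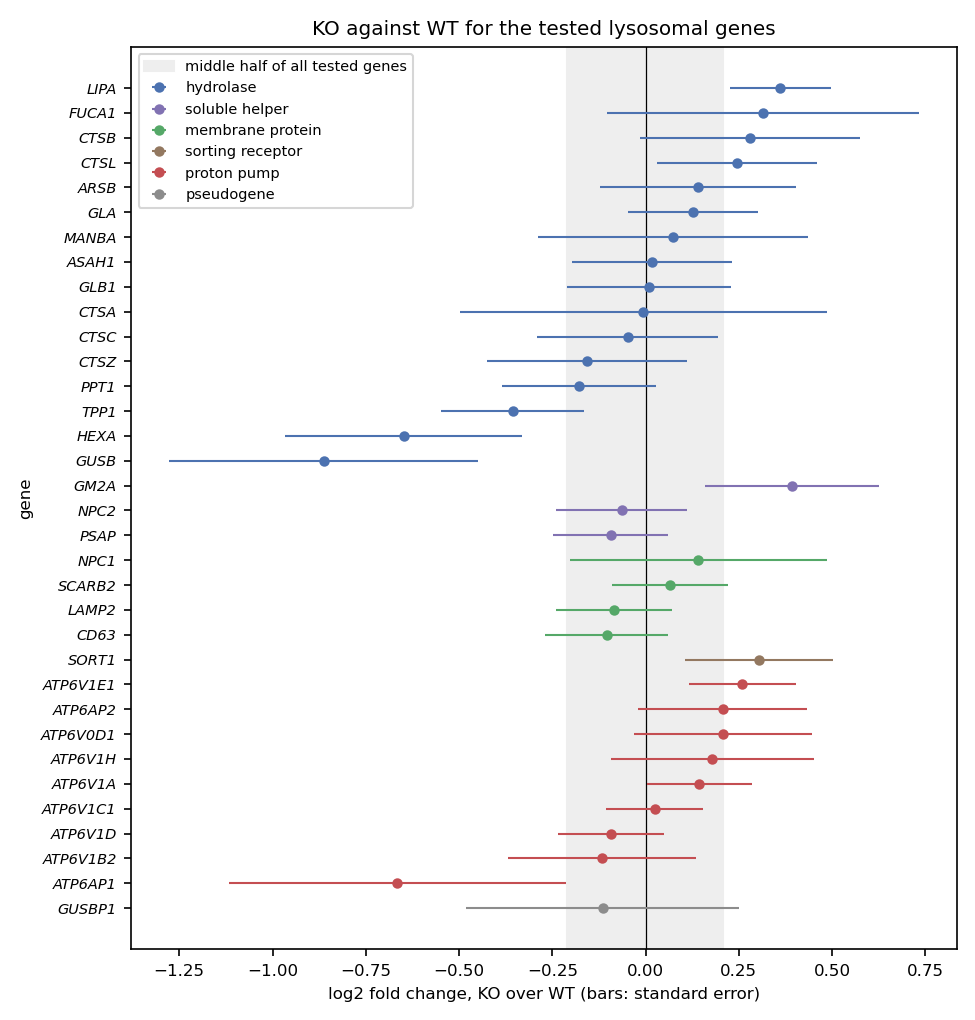
Log2 fold change of KO over WT (points) with its standard error (bars) for the 34 tested lysosomal genes, 2 libraries per group, grouped and coloured by class. The grey band spans the quartiles of all tested genes, from −0.21 to 0.21; no member passed the adjusted threshold, and the widest bars belong to genes with few counts.

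Among the hydrolases that carry mannose 6-phosphate, 16 of 26 were tested, 0 were called, and the median log2 fold change was 0.01. LIPA had 237 and 209 CPM in WT and 283 and 289.6 CPM in KO libraries. Both KO libraries were above both WT libraries, by 0.36 ± 0.14 on the log2 scale (SE, 2 libraries per group; edgeR adjusted p = 0.471), with a 95% interval of 0.07 to 0.66. The value was 0.24 without WT replicate 2. IFIT2 lies opposite LIPA in the annotation, so reads from both strands may have met there.

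GUSB, the beta-glucuronidase, had 6.98 and 8.07 CPM in WT and 3.79 and 4.46 CPM in KO libraries, from 11 to 22 counts each. The groups did not overlap, and the log2 fold change was −0.86 ± 0.41 (SE; edgeR adjusted p = 0.604). Pseudogene copies of GUSB lie elsewhere in the genome, and whether they affected its counts was not tested. GUSBP1, one of those copies, had 21 and 34 counts in WT and 35 and 24 in KO libraries under 1 identifier and 0 under the other, with overlapping groups (log2 fold change −0.12 ± 0.37). The identifier with counts has no GENCODE 29 record, so it has no transcript length or GC here.

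HEXA, the alpha subunit of beta-hexosaminidase, had 14.0 and 18.7 CPM in WT and 12.4 and 8.60 CPM in KO libraries (−0.65 ± 0.32, SE; edgeR adjusted p = 0.616). TPP1, a tripeptidyl peptidase, had 67.3 and 67.1 CPM in WT and 45.8 and 59.3 CPM in KO libraries (−0.36 ± 0.19; edgeR adjusted p = 0.657). In both genes the KO libraries were below the WT libraries, and in neither did the difference pass the test. Without 1 library HEXA ranged from −0.96 to −0.40 and TPP1 from −0.56 to −0.22. An antisense transcript overlaps HEXA, and whether it added reads to the HEXA count or took reads from it was not tested.

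GLA had 102 and 78.2 CPM in WT and 94.7 and 102 CPM in KO libraries, with overlapping groups (0.13 ± 0.17). CTSB, a cysteine protease, had 11.9 and 17.2 CPM in WT and 15.5 and 20.1 CPM in KO libraries (0.28 ± 0.29). The WT and KO ranges of CTSB overlapped as well, and its value was 0.04 without WT replicate 1 and 0.54 without WT replicate 2. The other 10 tested hydrolases had log2 fold changes between −0.18 (PPT1) and 0.32 (FUCA1). The thiol proteases CTSL and CTSC and the ceramidase ASAH1 were at 0.25, −0.05 and 0.02.

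The soluble proteins that assist the hydrolases gave no call. GM2A, which lifts ganglioside GM2 for HEXA, had 22.99 and 33.4 CPM in WT and 36.1 and 38.2 CPM in KO libraries (0.39 ± 0.23, SE; edgeR adjusted p = 0.697). Both of its KO libraries were higher, while the WT libraries differed by more than the nearer pair of WT and KO. Its value was 0.15 without WT replicate 1 and 0.66 without WT replicate 2. NPC2 had 116 and 89.5 CPM in WT and 90.5 and 106 CPM in KO libraries (−0.06 ± 0.18). PSAP, the precursor of the saposins, had 182 and 159 CPM in WT and 144 and 176 CPM in KO libraries (−0.09 ± 0.15), and in both genes the groups overlapped.

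Of the 7 membrane proteins 4 were tested, 0 were called, and the median log2 fold change was −0.00979. CD63 had 207 and 204 CPM in WT and 160.1 and 222 CPM in KO libraries (−0.10 ± 0.16, SE; edgeR adjusted p = 0.927). LAMP2 had 103 and 95.4 CPM in WT and 91.2 and 95.9 CPM in KO libraries, with a 95% interval of the log2 fold change of −0.43 to 0.25. The WT and KO libraries of CD63 and of LAMP2 overlapped.

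SCARB2, which carries beta-glucocerebrosidase to lysosomes independently of mannose 6-phosphate, had 87.4 and 90.6 CPM in WT and 94.3 and 92.4 CPM in KO libraries (0.07 ± 0.16). Its groups did not overlap, but they lay within a narrow range. NPC1, the cholesterol exporter of the lysosomal membrane, had 12.3 and 9.54 CPM in WT and 9.30 and 14.7 CPM in KO libraries (0.14 ± 0.34), with the KO libraries on both sides of the WT libraries. SORT1, a receptor that sorts prosaposin and some hydrolases without the tag, had 52.1 and 46.6 CPM in WT and 68.9 and 53.2 CPM in KO libraries (0.30 ± 0.20; edgeR adjusted p = 0.721). Without KO replicate 1 the value was 0.07, and without KO replicate 2 it was 0.48.

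All 9 proton pump genes were tested, 0 were called, and the median log2 fold change was 0.14, with 6 above and 3 below 0. This median lay between −0.001 and 0.04 when any 1 of the 4 libraries was left out. ATP6V1E1 had 302 and 244 CPM in WT and 327 and 327 CPM in KO libraries (0.26 ± 0.14, SE; edgeR adjusted p = 0.670). The KO libraries of ATP6V1E1 were alike and the WT libraries differed between themselves by more than WT replicate 1 from the KO libraries. The value was 0.42 without WT replicate 1 and 0.08 without WT replicate 2. ATP6V1A had 422 and 358 CPM in WT and 453 and 410.1 CPM in KO libraries (0.14 ± 0.14), and ATP6V1D had 213 and 185 CPM in WT and 178 and 196 CPM in KO libraries (−0.09 ± 0.14).

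The accessory subunits of the pump pointed in different directions without a call. ATP6AP1 had 9.44 and 11.4 CPM in WT and 3.44 and 9.56 CPM in KO libraries, where KO replicate 1 had 10 counts and KO replicate 2 had 30 (−0.67 ± 0.45). Its value was −0.16 without KO replicate 1 and −1.59 without KO replicate 2. ATP6AP2, also known as the prorenin receptor, had 22.6 and 26.1 CPM in WT and 29.3 and 27.1 CPM in KO libraries (0.21 ± 0.23). The most precise member was ATP6V1C1, with 238, 241, 240 and 248 CPM in the 4 libraries and a log2 fold change of 0.02 ± 0.13.

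Hydrolases, membrane proteins and pump subunits were close to one another in their change. The hydrolase median exceeded the membrane protein median by 0.02 and lay 0.13 below the pump median, on the log2 scale, while the spread of these differences between replicate libraries was 0.0441 and 0.0862 (SD). Without 1 library the first difference ranged from −0.0669 to 0.192, so that it turned, and the second from −0.0633 to −0.00451. Summed over all listed members, hydrolases had 683 and 635 CPM in WT and 693 and 737 CPM in KO libraries. Membrane proteins had 411 and 402 CPM in WT and 356 and 428 CPM in KO libraries, and pump subunits 1277 and 1139 CPM in WT and 1304 and 1296 CPM in KO libraries. KO sums of the hydrolases and of the pump lay above the WT sums, and those of the membrane proteins on both sides. LIPA supplied more of the hydrolase sum than any other gene, at 209 to 289.6 CPM. Without LIPA, the hydrolase sums of the WT and KO libraries overlap. The same holds for the pump sums without ATP6V1E1. GC also moved with the fold change: 5 tested members from 55% GC upwards had a median of −0.16 and 28 below it one of 0.07, beside −0.15 and 0.04 for all tested coding genes in the same ranges. Genes of 60% GC or more took 0.553% and 0.588% of the counts of coding genes in WT and 0.425% and 0.505% in KO libraries. The part of GC in the class medians was not tested. Class medians centred on genes of like GC are given in the last section as a description.

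**Figure D4:**
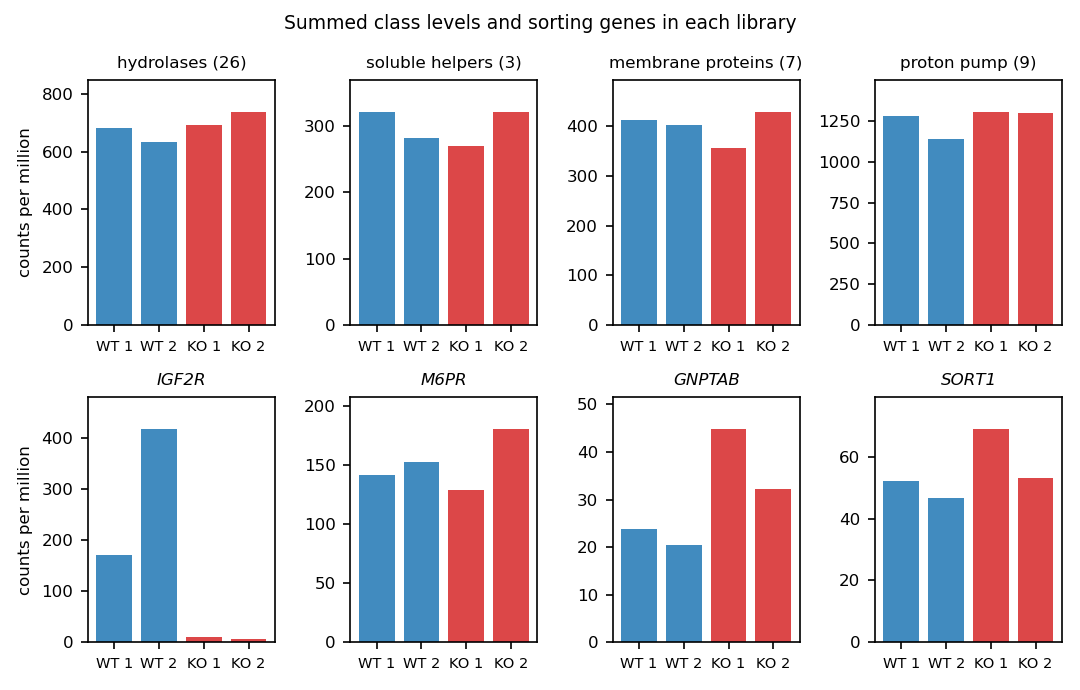
CPM in each library (blue WT, red KO), as sums over all listed hydrolases, soluble helpers, membrane proteins and proton pump genes in the upper row and for IGF2R, M6PR, GNPTAB and SORT1 in the lower row. Each panel has its own axis from 0; class sums differ little between genotypes, and IGF2R falls from 171 and 417 to 10.7 and 7.33.

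Of the genes that make and read the tag, the main receptor was called lower in the KO libraries. IGF2R, the large mannose 6-phosphate receptor, had 416 and 1137 counts in WT and 31 and 23 in KO libraries, and was the 1 gene called among the 86 tested of 132 further lysosomal and sorting genes (log2 fold change −5.03 ± 0.50, SE; edgeR adjusted p = 0.0102). The WT libraries themselves differed, at 171 and 417 CPM, and the call was lost without KO replicate 1 (−5.36; edgeR adjusted p = 0.573) and without KO replicate 2 (−4.78; edgeR adjusted p = 0.408). M6PR, the smaller receptor for the same tag, had 141 and 152 CPM in WT and 129 and 180.35 CPM in KO libraries (0.08 ± 0.17). Its groups overlapped.

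GNPTAB, the catalytic subunit precursor of the phosphotransferase that begins the tag, had 23.8 and 20.5 CPM in WT and 44.8 and 32.2 CPM in KO libraries. Both KO libraries were higher, with a log2 fold change of 0.79 ± 0.24 (SE; 95% interval 0.26 to 1.32), which did not pass over all genes (edgeR adjusted p = 0.344) but did without KO replicate 2 (1.01; edgeR adjusted p = 0.0464). Without KO replicate 1 it was 0.50. GNPTG, its gamma subunit, and NAGPA, which uncovers the tag, had at most 5 counts in any library. In the list of tagging and sorting genes, 18 of 22 were tested, with 0 called higher and 1 lower and a median of −0.08.

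Further lysosomal genes also gave no call. Of 33 further hydrolases 20 were tested, 0 were called and the median log2 fold change was −0.02. The smallest p belonged to CTSV, a cathepsin close to CTSL in sequence (0.36 ± 0.14, SE; edgeR adjusted p = 0.481), and to CTSH (−0.96 ± 0.48), which had 7 to 16 counts per library. Of 34 further membrane proteins 18 were tested, 0 were called and the median was 0.03. SLC36A4, an amino acid transporter, had 15.6 and 21.3 CPM in WT and 31.7 and 28.7 CPM in KO libraries (0.70 ± 0.25; edgeR adjusted p = 0.441), and TMEM192 had −0.58 ± 0.40. TMEM192 had 26 and 37 counts in WT and 33 and 16 in KO libraries, and its value was −1.28 without KO replicate 1 and −0.10 without KO replicate 2.

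Of 20 further genes of the proton pump and its assembly 12 were tested, 0 were called and the median was 0.01. WDR7, which belongs to the pump's assembly machinery, had 0.56 ± 0.34 (SE), and ATP6V0A1, a membrane-sector subunit, −0.30 ± 0.22. The proteolipid ATP6V0C, a core subunit of the membrane sector with a transcript of 63.6% GC, had 0 counts in all 4 libraries, beside 934 to 1242 counts for ATP6V0E1; these 2 were chosen after their values were seen. Of 23 transcription factors of the TFEB family and genes of mTORC1 signalling at the lysosome 18 were tested, 0 were called and the median was 0.02. TSC1, a brake on mTORC1, had 109 and 116 CPM in WT and 82.3 and 92.7 CPM in KO libraries (−0.37 ± 0.16; edgeR adjusted p = 0.557). RRAGB, a GTPase that recruits mTORC1 to the lysosome, had −0.81 ± 0.40.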

How the data were processed

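The authors deposited raw counts per gene, from HTSeq per the sheet names and from STAR alignments to hg38 per the submitters' processing notes. For tool versions, annotation and strand the sources used here state nothing. A second table deposited by the authors lists, per its header, the mean signal (base mean), log2 fold change and error, Wald score and p-value with its adjusted form; it served as a comparison.

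The test was edgeR 4.0.16 under R 4.3.3, a robust quasi-likelihood fit with genotype as its term, after TMM scaling and filterByExpr with a minimum count of 10. DESeq2 1.42.0 was an alternative. CPM used TMM-scaled totals. Transcript length and GC are those of 1 transcript per gene in GENCODE 29 (APPRIS principal, then longest coding sequence). Intervals of count ratios are exact (Clopper-Pearson) and, like floors, cover counting error only. The chi-square per degree of freedom was 5.01 between WT and 5.38 between KO replicates, so neither pair repeats 1 library. The smallest two-sided p of an exact permutation of these libraries is 0.333.

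Members and lists were chosen with earlier results of these data known. Genes named in full were, per class, the 4 members of smallest p and the 2 highest per length, all members of small classes, and CTSD, CTSB, LAMP1, LAMP2, GUSB and TFEB; in further lists, called genes, the 2 of smallest p, and IGF2R, M6PR and GNPTAB. Any other name was picked with its values in view.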

Additional observations from a re-analysis of the deposited data

How the results depend on the processing

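With DESeq2, RLE size factors, no scaling factors, no filter, a mean count of at least 10 or the replicate number as a block, 0 members were called, as was the case without each library in turn. Calls over all genes were less stable, at 35 in the fit reported, 156 with no filter, 140 with the replicate block, and 64, 127, 3 and 4 without KO replicate 1, KO replicate 2, WT replicate 1 and WT replicate 2. Deviations of same-numbered libraries from their group means correlated at −0.0351 over the tested genes, which cannot tell whether these libraries shared any handling. The replicate block moved no member past the threshold. With no filter, which adds members with few counts, the membrane protein median became −0.083 and the hydrolase median exceeded it by 0.104. Centring on the median of genes of like GC, chosen after seeing the data, gave 0.054 for the hydrolase median and 0.0723 for its excess over membrane proteins. It gave 0.112 for the pump median, and −0.0584 for the hydrolase median minus that of the pump, beside −0.131 in the fit reported. Leaving out 1 library gave medians from −0.050 to 0.0164 for hydrolases, −0.176 to 0.0486 for membrane proteins and −0.000996 to 0.0380 for the pump. The hydrolase median minus that of membrane proteins ranged from −0.0669 to 0.192, and minus that of the pump from −0.0633 to −0.00451. Of 31 named genes none changed sign in a setting with all 4 libraries. When 1 library was left out, log2 fold changes crossed 0 for GLA (−0.0898 to 0.326), CD63 (−0.362 to 0.0791), NPC1 (−0.229 to 0.393), ATP6V1A (−0.00578 to 0.267), ATP6V1D (−0.228 to 0.0132), NPC2 (−0.277 to 0.133), PSAP (−0.248 to 0.0115), GUSBP1 (−0.504 to 0.181) and M6PR (−0.187 to 0.262). ATP6AP2 (0.109 to 0.281), LAMP2 (−0.176 to −0.0305), SCARB2 (0.0181 to 0.081) and WDR7 (0.304 to 0.742) moved by over 1.5 times without crossing 0. So did other genes whose values without 1 library are given above, among them ATP6AP1, CTSB, SORT1, ATP6V1E1 and TMEM192. The cause was not tested. With 1 library left in a group, it was assumed to vary like the other group. Standard errors of tested members lay between 0.13 and 0.49, which limits what differences could be seen.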
